A study of Mus musculus with 24 samples.

Results

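The 36 astrocyte genes described here were chosen by name as genes that mark or serve astrocytes, out of 51826 genes counted in the dorsal hippocampus of 24 male C57BL/6J mice aged 2 to 4 months. Their symbols were matched to the counted Ensembl identifiers through GENCODE M21, and all 36 were found. The mice were wild type (WT) or carried point mutations in the KIX domain of the transcriptional coactivator CBP in every cell of the body (CBP KIX/KIX), and were littermates from heterozygous matings. In RNA-Seq 1, total RNA depleted of ribosomal RNA was sequenced from 3 WT homecage mice, 3 WT mice trained in the Morris water maze (MWM) and 3 CBP KIX/KIX mice trained in the MWM. In RNA-Seq 2, polyadenylated RNA was sequenced from 3 WT homecage mice, 4 WT mice given contextual fear conditioning (CFC), 4 CBP KIX/KIX homecage mice and 4 CBP KIX/KIX mice given CFC. Trained mice were dissected 1 h after training, on the third day for the MWM and after a single shock for CFC. Task, RNA selection, site and sequencer changed together between RNA-Seq 1 and RNA-Seq 2, so their parts cannot be told apart.

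Astrocytes are the glial cells that clear glutamate from synapses, buffer potassium and water, feed lactate to neurons and couple to each other through gap junctions. When tissue is stressed or injured they become reactive, which is known above all from a rise of the intermediate filament GFAP. CBP is a coactivator and histone acetyltransferase, and its KIX domain binds activators such as phosphorylated CREB.

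Each library held 15385836 to 65709282 counts (RNA-Seq 1: 38174044 to 65709282), and levels are given in CPM (counts scaled to a fixed library size) after upper-quartile normalization over the 24 libraries. All 36 genes were counted in all 24 libraries, from 1.95 CPM for Mt2 to 2974 CPM for Slc1a2. The summed level of the 36 genes lay between 8697 and 11420 CPM in every library. A bulk level cannot tell fewer astrocytes from less RNA in each. Several of the genes are also used by other cells, such as Clu in neurons and Id3 in vessels. Among 49 markers of 10 other cell classes, those of the choroid plexus varied most, with a summed level from 26.1 to 3861 CPM within RNA-Seq 2, and a fit with their level as a covariate is given for the learning comparison. The third WT homecage library of RNA-Seq 1 stood apart from the other 2 of its group over all genes, with a chi-square per gene of 81.3 and 71.7 against them, where these gave 14.5 between themselves. Its 8 neuronal markers summed to 7323 CPM, against 10980 and 11010, and its choroid plexus markers to 1769 CPM, against 146 and 159. The point mutations cannot be read from gene counts, so the genotype labels were not checked. Within each experiment the comparisons shared groups and are not independent of each other.

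The stretches before the start sites of the 5 genes that passed the genotype test after learning are shown because CBP acts through factors bound to such sequences. They come from RefSeq on GRCm38.p6, each ends at the base before the RefSeq start site or where an annotated untranslated region begins, and each is written 5′ to 3′ on the strand of the gene. Capitals mark the short cyclic AMP element (TGACG), the AP-1 site (TGANTCA) and the E-box (CACGTG), searched on both strands.
Gfap: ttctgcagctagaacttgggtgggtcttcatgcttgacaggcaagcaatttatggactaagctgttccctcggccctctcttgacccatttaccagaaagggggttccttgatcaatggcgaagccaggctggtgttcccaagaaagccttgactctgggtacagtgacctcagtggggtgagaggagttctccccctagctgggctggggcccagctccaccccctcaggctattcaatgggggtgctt
Cbs: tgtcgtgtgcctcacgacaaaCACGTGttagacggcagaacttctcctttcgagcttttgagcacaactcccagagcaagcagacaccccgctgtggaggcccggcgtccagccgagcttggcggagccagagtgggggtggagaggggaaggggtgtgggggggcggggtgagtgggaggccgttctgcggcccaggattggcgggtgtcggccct
Aldh1l1: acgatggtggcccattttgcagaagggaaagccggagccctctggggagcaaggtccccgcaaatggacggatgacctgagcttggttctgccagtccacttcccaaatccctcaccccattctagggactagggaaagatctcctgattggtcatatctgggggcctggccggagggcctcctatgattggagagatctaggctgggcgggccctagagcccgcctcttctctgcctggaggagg
Gja1: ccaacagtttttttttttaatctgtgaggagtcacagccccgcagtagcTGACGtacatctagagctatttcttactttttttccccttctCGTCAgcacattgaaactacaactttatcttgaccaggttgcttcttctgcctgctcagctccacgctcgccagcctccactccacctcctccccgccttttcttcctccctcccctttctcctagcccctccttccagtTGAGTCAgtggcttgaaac
F3: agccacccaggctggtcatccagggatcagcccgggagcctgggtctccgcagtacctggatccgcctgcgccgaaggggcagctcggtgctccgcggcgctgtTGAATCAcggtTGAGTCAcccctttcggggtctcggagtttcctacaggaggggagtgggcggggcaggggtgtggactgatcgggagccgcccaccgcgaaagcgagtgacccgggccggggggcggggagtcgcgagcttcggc

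The printed stretch lay at chr11:102897201-102897450 (- strand) for Gfap, at chr17:31637239-31637455 (- strand) for Cbs, at chr6:90550543-90550788 (+ strand) for Aldh1l1, at chr10:56377050-56377299 (+ strand) for Gja1 and at chr3:121723287-121723536 (+ strand) for F3. Over the 250 bases before the start, Gja1 held a short element at -201 to -197 and at -159 to -155, and an AP-1 site at -19 to -13. F3 held AP-1 sites at -146 to -140 and at -135 to -129, and Cbs held an E-box at -229 to -224. Gfap and Aldh1l1 held none of these motifs. Of the 36 genes, 30 had a promoter in the table. The short element was in 7 of these 30 genes (23.3%, beside 19.8% of 27025 genes), the AP-1 site in 3 (7.82% of all genes) and the E-box in 3 (6.86% of all genes). The full cyclic AMP response element, TGACGTCA, was in 0 of the 30, beside 1.77% of all genes. A signal transducer and activator of transcription site, TTCCNGGAA, was in Aldoc alone (3.33%, beside 1.09%). A short element counts also inside a full element.

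The genes covered a wide range of levels in WT homecage mice. Per kilobase of exon, the matricellular protein Sparcl1 stood highest in RNA-Seq 2 at 534 ± 8.53 CPM (SD, n = 3), followed by glutamine synthetase Glul at 342 ± 36.7. The secreted chaperone Clu at 208 ± 5.15, the glycolytic enzyme Aldoc at 202 ± 7.64 and the brain metallothionein Mt3 at 197 ± 3.85 CPM per kilobase came next, and Aldoc did not differ beyond its spread from the gene on either side of it. The glutamate transporters followed, Slc1a2 at 153 ± 10.7 and Slc1a3 at 61.5 ± 2.83 CPM per kilobase. Between them lay Mt1 at 97.6 ± 5.25, Atp1b2 at 91.2 ± 2.08 and Gfap at 72.0 ± 2.46. The lowest levels were those of the transcription factors Sox9 at 5.14 ± 0.237 and Rfx4 at 2.81 ± 0.264, with Cbs at 4.47 ± 0.616 CPM per kilobase between them. In RNA-Seq 1 the order began with Glul at 555 ± 20.7, Sparcl1 at 262 ± 24 and Aldoc at 251 ± 14.7 CPM per kilobase, and the last pair did not differ beyond its spread.

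**Figure D1:**
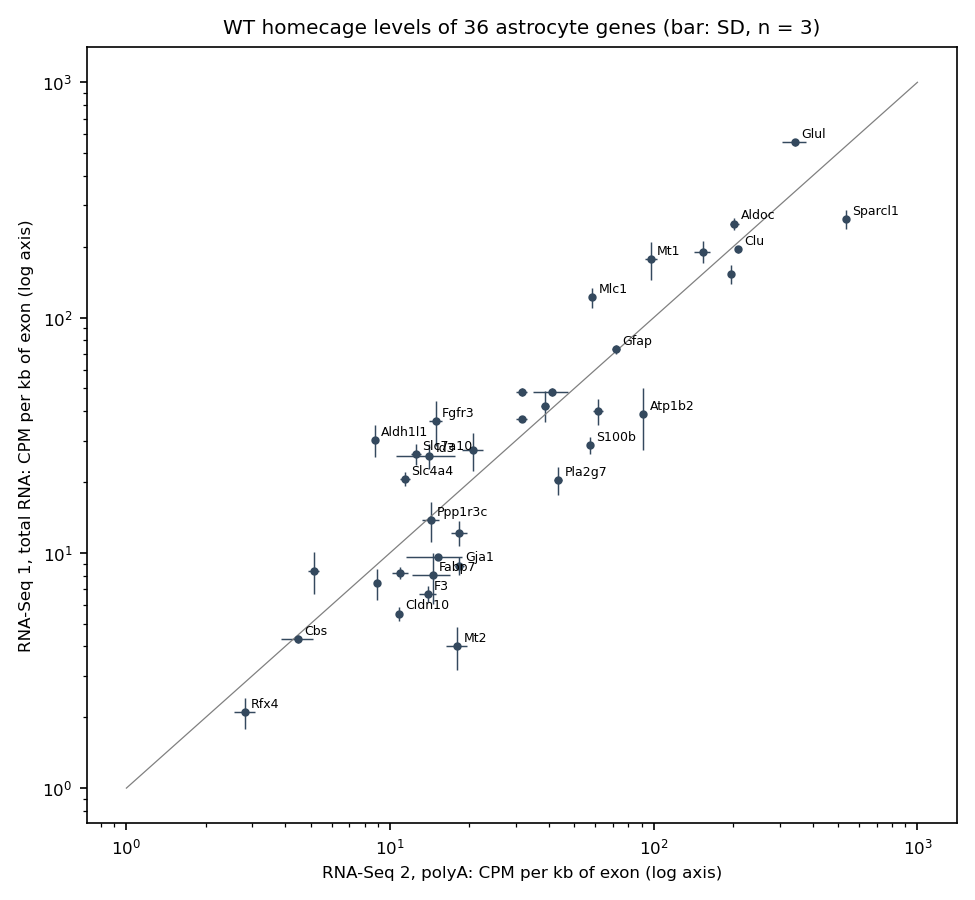
Mean level of each of the 36 genes in WT homecage mice of RNA-Seq 2 (horizontal) and RNA-Seq 1 (vertical), in CPM per kilobase of exon on log axes, with SD over 3 libraries as bars and a line of equal level; genes with a large difference between the axes and a few others are labelled. Aldh1l1 stands above the line at 30.2 against 8.73 CPM per kilobase, and Mt2 stands below it at 4.01 against 17.9.

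Levels of many of the 36 genes differed between the WT homecage groups of RNA-Seq 1 and RNA-Seq 2. Between the WT homecage groups, edgeR's quasi-likelihood test with Benjamini-Hochberg adjustment called 27 of the 36 genes at 0.05 in a comparison where 69.7% of 20602 genes passed. Of these, 11 were higher in total RNA (37.5% of all genes) and 16 lower (32.2%). Aldh1l1, an enzyme of folate metabolism widely used as an astrocyte marker, was counted at 137, 157 and 115 CPM in total RNA and at 38.3, 40.1 and 39.9 CPM in polyadenylated RNA. The groups did not overlap, with a log2 difference of 1.69 ± 0.11 (SE; adjusted p = 2.8e-06). The metallothionein Mt2 went the other way, at 1.95, 2.91 and 2.21 CPM against 9.63, 10.4 and 11.6 CPM, a log2 difference of -2.25 ± 0.17 (adjusted p = 5.6e-06). Exons of both Aldh1l1 and Mt2 overlap those of an antisense gene, and how such reads were assigned was not tested. Gfap did not differ in this comparison, at 294, 320.3 and 314 CPM against 296, 315 and 299.7 CPM. The site and sequencer differed too, so genes were compared between conditions only within an experiment.

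The first question was whether astrocyte genes differ between CBP KIX/KIX and WT mice after learning. In the joint fit of both experiments with 4 factors of unwanted variation, 5 of 36 genes passed an adjusted p under 0.05, beside 2.46% of 21489 genes tested (0.935% higher and 1.52% lower). Gfap, Cbs and Aldh1l1 were lower in CBP KIX/KIX mice and Gja1 and F3 were higher, by 0.16 to 0.29 on the log2 scale in size. The median log2 difference of the 36 genes was 0.01, beside -0.01 for all genes, and 21 were above 0 and 15 below. Without the factors the log2 differences of the 5 genes were nearly the same and 0 of them passed (adjusted p from 0.10 to 0.37), while 8 of 36 had an unadjusted p under 0.05, beside 9.87% of all genes. In that fit 0.0233% of all genes passed. With the factors 12 of the 36 had an unadjusted p under 0.05, 8 higher and 4 lower, beside 18.7% of all genes (8.55% higher and 10.2% lower).

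Gfap (ENSMUSG00000020932.14, chr11:102887336-102900912) encodes the filament protein of astrocytes. After the MWM it was at 354, 308 and 317 CPM in WT mice and at 259, 243 and 242 CPM in CBP KIX/KIX mice, and the groups did not overlap. After CFC it was at 287, 273, 294 and 322 CPM in WT mice and at 224, 307, 229.8 and 250.3 CPM in CBP KIX/KIX mice, where 1 mutant library lay among the WT values. The joint log2 difference was -0.29 ± 0.04 (SE; edgeR's quasi-likelihood test with Benjamini-Hochberg adjustment, adjusted p = 0.0031), and 6 of 7 mutant libraries were below the WT mean of their experiment. Tested alone, the difference was -0.38 ± 0.09 after the MWM (edgeR, adjusted p = 0.81) and -0.21 ± 0.30 after CFC, in a fit that held the widely spread CBP KIX/KIX homecage group.

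Cbs (ENSMUSG00000024039.14, chr17:31608894-31637238) encodes cystathionine beta-synthase, which makes cystathionine from homocysteine and can release hydrogen sulfide. It was at 40.6, 30.1 and 32.3 CPM in WT and 25.7, 25.7 and 28.2 CPM in mutant mice of the MWM groups, without overlap. After CFC it was at 32.6, 28.7, 30.4 and 32.1 CPM in WT and 26.5, 29.3, 24.1 and 23.8 CPM in CBP KIX/KIX mice, with overlap. The log2 difference was -0.29 ± 0.04 (SE; edgeR, adjusted p = 0.0036) and 7 of 7 mutant libraries lay below the WT mean.

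Aldh1l1 (ENSMUSG00000030088.15, chr6:90486427-90600203) was at 135, 124 and 145 CPM in WT and 116, 114 and 107 CPM in mutants trained in the MWM. After CFC it was at 38.5, 46.4, 37.2 and 38.3 CPM in WT and 35.1, 32.5, 32.4 and 32.5 CPM in CBP KIX/KIX mice. Every mutant library lay below every WT library in each experiment, which held for 0.200% of all genes in the lower direction. The log2 difference was -0.26 ± 0.04 (SE; edgeR, adjusted p = 0.0074). The gene overlaps exons of a long noncoding RNA gene on its own strand and of an antisense gene, and how reads of both were assigned was not tested.

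Gja1 (ENSMUSG00000050953.10, chr10:56377330-56402513) encodes connexin 43, the main gap junction protein of astrocytes. It was at 102, 103 and 94.3 CPM in WT and 114, 113 and 113 CPM in mutants trained in the MWM, and at 183, 171, 187 and 172 CPM in WT and 197, 194, 194 and 188 CPM in CBP KIX/KIX mice after CFC. Every mutant library lay above every WT library in each experiment, which held for 0.149% of all genes in the higher direction. The log2 difference was 0.16 ± 0.03 (SE; edgeR, adjusted p = 0.011), and with normalization for GC content it was 0.11 (adjusted p = 0.11). The other junction genes had joint log2 differences of 0.17 ± 0.05 for connexin 30 (Gjb6; adjusted p = 0.10) and 0.10 ± 0.04 for the claudin Cldn10 (adjusted p = 0.25).

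F3 (ENSMUSG00000028128.13, chr3:121723537-121735048) encodes tissue factor, the surface receptor that starts coagulation. After the MWM it was at 17.2, 19.8 and 21.1 CPM in WT and 25.4, 28.1 and 23.8 CPM in CBP KIX/KIX mice, without overlap. After CFC it was at 33.2, 38.9, 35 and 38 CPM in WT and 36.9, 39, 37.5 and 38.8 CPM in CBP KIX/KIX mice, and the groups overlapped. The joint log2 difference was 0.23 ± 0.04 (SE; edgeR, adjusted p = 0.013), from 0.43 ± 0.12 after the MWM and 0.07 ± 0.06 after CFC. The difference between these was 0.36 ± 0.13 (interaction in edgeR, adjusted p = 0.76). Without the second CBP KIX/KIX MWM library the joint value was 0.18 (adjusted p = 0.060).

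**Figure D2:**
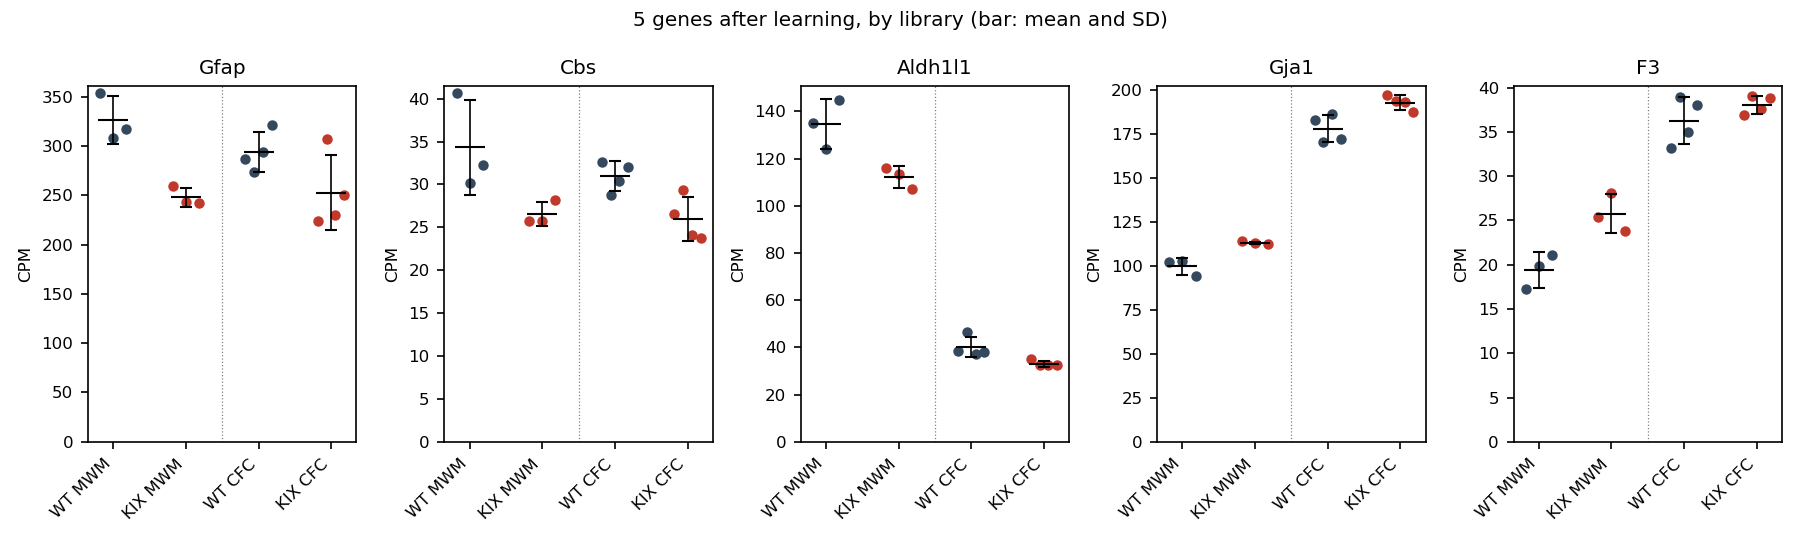
CPM of Gfap, Cbs, Aldh1l1, Gja1 and F3 in each trained library (dark: WT, red: CBP KIX/KIX), with mean and SD; a dotted line separates RNA-Seq 1 (MWM) from RNA-Seq 2 (CFC). The groups do not overlap within either experiment for Aldh1l1 and Gja1.

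The other 31 genes did not pass, with log2 differences from -0.20 (Id3, an inhibitor of helix-loop-helix factors) to 0.17 (Gjb6). None of the glutamate uptake genes, of the 6 genes of water, ion and amino acid handling, of the metallothioneins, of the receptors or of the transcriptional regulators passed. Slc1a2 and Slc1a3, which take up glutamate, and Glul, which turns it into glutamine, lay between -0.02 and 0.04. Glycogen targeting subunit Ppp1r3c had 0.13 ± 0.04 (adjusted p = 0.094). Tested within an experiment, 0 of 36 genes passed after the MWM (0 of 22276 genes) or after CFC (0.0106% of 18851 genes). DESeq2 also called 0 of 36 in each, and 6 and 3 of the 36 had an unadjusted p under 0.05 (5.89% and 2.64% of all genes). After the MWM these were 2 higher (2.50% of all genes) and 4 lower (3.39%), and the groups did not overlap in 4 genes that were higher (7.80%) and 4 that were lower (9.30%). Within the MWM groups the 3 lowest p-values were those of Gfap, F3 and Cbs, the last at -0.35 ± 0.11 (adjusted p = 0.81). Within the CFC groups they were those of Gja1 at 0.12 ± 0.04, Aldh1l1 at -0.28 ± 0.10 and Cbs at -0.25 ± 0.09 (adjusted p = 1.0 for each). The effect of genotype did not differ detectably between the experiments for any of the 36 (interaction, 0 adjusted by edgeR or DESeq2; 2 at an unadjusted p under 0.05, 5.56%, beside 6.42% of all genes). After F3, the lowest p-values for it were those of the fatty acid binding protein Fabp7 at 0.31 ± 0.14 and the phospholipase Pla2g7 at 0.23 ± 0.11 (adjusted p = 0.76 for each).

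**Figure D3:**
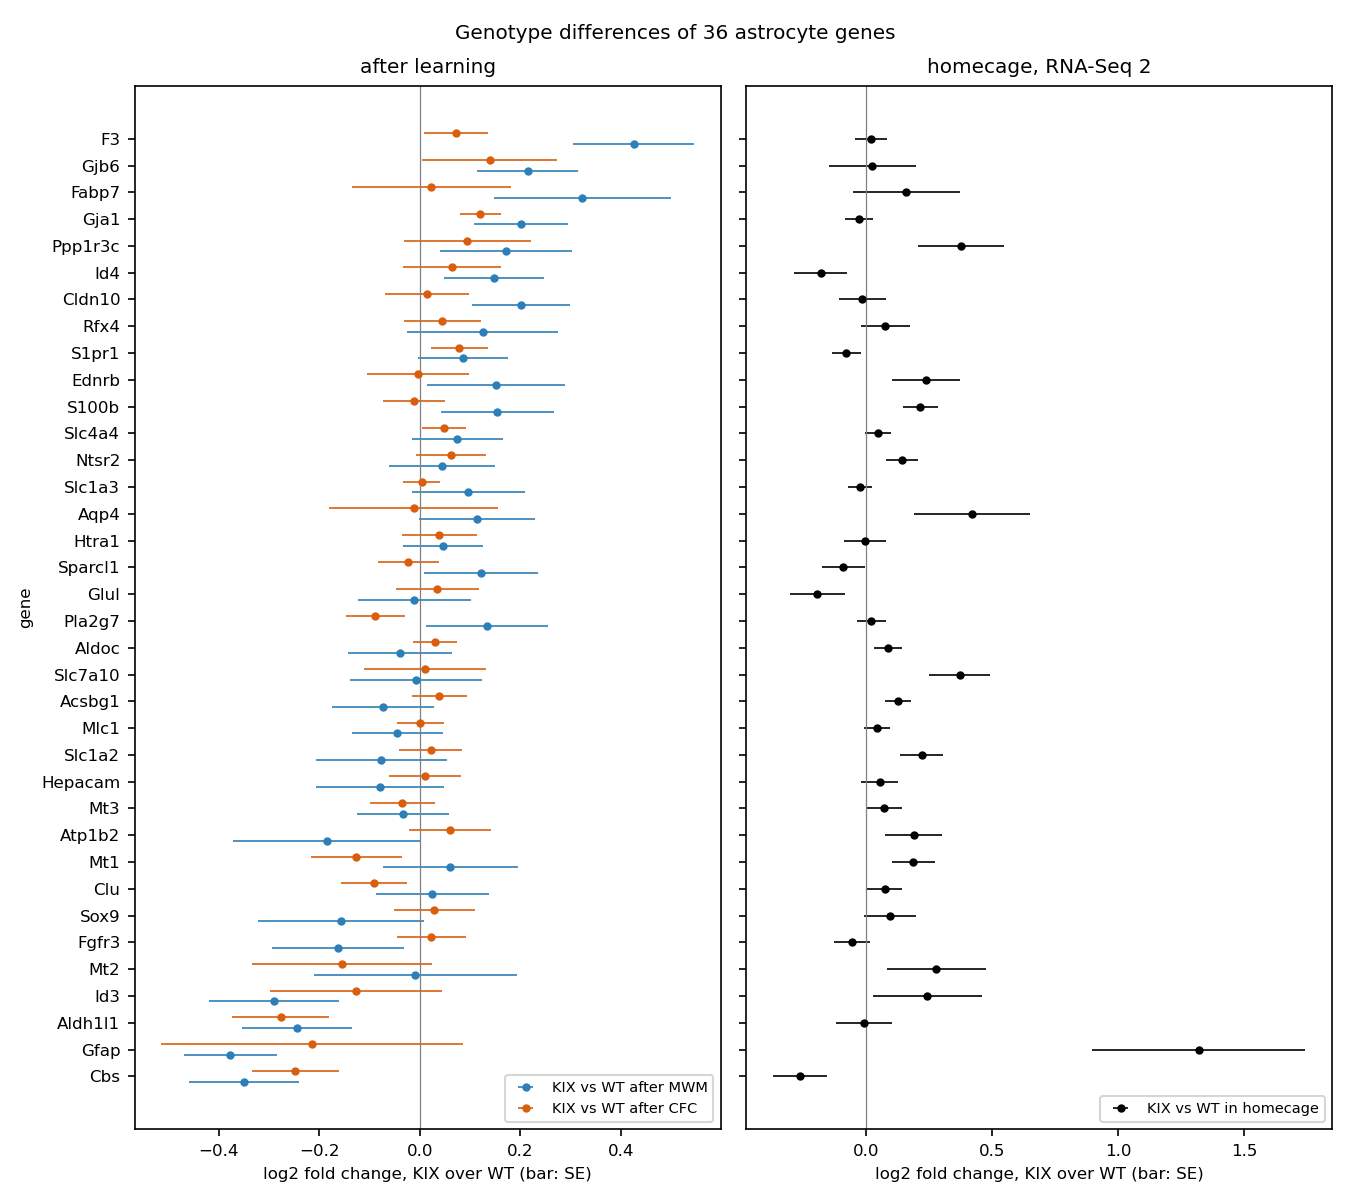
Log2 fold change of CBP KIX/KIX over WT with its SE for the 36 genes, after the MWM (blue) and after CFC (orange) on the left and in homecage mice of RNA-Seq 2 (black) on the right, ordered by the joint fit after learning. Cbs and Aldh1l1 lie below 0 and Gja1 above 0 after both tasks, and Gfap stands at 1.32 ± 0.42 in the homecage; the 2 panels have different horizontal ranges.

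Of 40 other astrocyte genes, 1 rose and 3 fell in the joint fit, beside 0.935% and 1.52% of all genes. The mitochondrial glutamate carrier Slc25a18 was higher (0.18 ± 0.04, adjusted p = 0.041), and Btbd17 (-0.18 ± 0.04, adjusted p = 0.029), the phagocytosis bridge Mfge8 (-0.17 ± 0.04, adjusted p = 0.045) and the lipid carrier Apoe (-0.10 ± 0.03, adjusted p = 0.0496) were lower. Of 19 tested genes of the reactive state, the protease inhibitor Serpina3n was lower by -0.26 ± 0.06 on the log2 scale (adjusted p = 0.044). Of 13 tested glucocorticoid-responsive genes, the clock gene Per1 was lower (-0.30 ± 0.04, adjusted p = 0.0028). None of 18 glycogen and lactate genes and none of the 49 markers of other cell classes passed. At an unadjusted p under 0.05 there were 5 markers, all lower, beside 10.2% of all genes lower and 8.55% higher.

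The next comparison asked which of the genes change with learning in WT mice. In the joint fit with 3 factors, 2 of 36 genes passed, beside 0.908% of 22038 genes tested (0.345% higher and 0.563% lower). Ppp1r3c, which directs protein phosphatase 1 to glycogen and promotes its storage, rose, and Atp1b2, the beta subunit of the astrocyte sodium pump, fell. At an unadjusted p under 0.05 there were 9 of 36 (4 higher and 5 lower), beside 18.6% of all genes (6.48% higher and 12.1% lower). Without the factors 0 of 36 passed (0.0408% of all genes), and 2 had an unadjusted p under 0.05, beside 8.55% of all genes.

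Ppp1r3c (ENSMUSG00000067279.2, chr19:36731731-36736653) was at 34.2, 32.6 and 46 CPM in homecage mice and 45.2, 48.3 and 49.8 CPM after the MWM. It was at 36.4, 38 and 42.1 CPM in homecage mice and 42.2, 37, 45.4 and 43.5 CPM after CFC. The groups overlapped in each experiment, and 6 of 7 trained libraries lay above the homecage mean. The log2 difference was 0.23 ± 0.04 (SE; edgeR, adjusted p = 0.017), and 7 of the 13 fits that left out 1 library lost the call. It was also lost with the choroid plexus covariate (0.19, adjusted p = 0.062).

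Atp1b2 (ENSMUSG00000041329.13, chr11:69599736-69605942) was at 175, 195 and 106 CPM in homecage mice and 113, 152 and 97.5 CPM after the MWM. In RNA-Seq 2 it was at 373, 364 and 381 CPM in homecage mice and 366, 344, 358 and 352 CPM after CFC. The third homecage library of RNA-Seq 1 lay among the trained ones. The log2 difference was -0.22 ± 0.05 (SE; edgeR, adjusted p = 0.044), 7 of 7 trained libraries lay below the homecage mean, and 10 of the 13 fits without 1 library lost the call. It was also lost with the choroid plexus covariate (-0.17, adjusted p = 0.11).

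The count of genes that passed depended on single libraries. It was 8 without the third WT homecage library of RNA-Seq 1, the one that stood apart, and 11.1% of all genes passed in that fit. It was 0 without the first or the second WT homecage library or the second or the third MWM library of RNA-Seq 1, or without the first WT homecage library or the third or the fourth CFC library of RNA-Seq 2, fits in which 0.136% to 0.309% of all genes passed. It was 1 without the first MWM library, the second WT homecage library of RNA-Seq 2 or the second CFC library (0.278% to 1.04% of all genes). In RNA-Seq 1 the summed level of 5 endothelial markers lay from 174 to 203 CPM in homecage and from 131 to 163 CPM in MWM mice, and the vascular claudin Cldn5 fell in the joint fit (-0.48 ± 0.10, adjusted p = 0.034). The 5 choroid plexus markers were higher in trained mice at an unadjusted p under 0.05, with a median log2 difference of 1.51. With the choroid plexus level as a covariate 0 of the 36 genes passed, beside 0.476% of all genes. The part of the endothelial markers was not tested.

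Tested by task, 0 of 36 genes passed after the MWM (0.0135% of 22276 genes) or after CFC (0 of 18851 genes), and DESeq2 also called 0 in each. Of all genes 0.00898% were called higher and 0.00449% lower after the MWM. The groups did not overlap in 5 genes that were higher after the MWM (6.89% of all genes) and in 1 that was lower (7.69%), and in 1 higher (1.71%) and 4 lower (3.79%) after CFC. After the MWM 4 of 36 genes had an unadjusted p under 0.05 (11.4% of all genes), 2 higher (1.99%) and 2 lower (9.38%). These were Gjb6 at 0.24 ± 0.10, Ppp1r3c at 0.31 ± 0.13, Rfx4 at -0.35 ± 0.15 and Atp1b2 at -0.41 ± 0.19. Without the third homecage library 5 of the 36 passed, beside 10.8% of all genes, with Ppp1r3c at 0.51 (adjusted p = 0.0087). After CFC 0 of 36 were higher (1.43% of all genes) and 2 lower (1.32%) at an unadjusted p under 0.05 (2.74% in all), the growth factor receptor Fgfr3 at -0.22 ± 0.07 and the protease Htra1 at -0.17 ± 0.08. Gjb6 gave 0.24 ± 0.10 after the MWM and -0.25 ± 0.15 after CFC, a difference of 0.49 ± 0.20 (interaction in edgeR, adjusted p = 0.62). For that interaction 0 of 36 genes passed by edgeR or DESeq2 (4 at an unadjusted p under 0.05, 7.41% of all genes), and 2 passed without the third WT homecage library of RNA-Seq 1 (3.93% of all genes). Slc7a10 gave -0.45 ± 0.17 and Htra1 0.29 ± 0.11 for it (adjusted p = 0.61 for each).

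Of the 40 other astrocyte genes, 1 rose and 3 fell with learning in the joint fit, beside 0.345% and 0.563% of all genes. At an unadjusted p under 0.05, 3 were higher and 13 lower, beside 6.48% and 12.1% of all genes. The deiodinase Dio2, which activates thyroid hormone, was higher (0.29 ± 0.04, adjusted p = 0.0065). The glutamate receptor subunit Grin2c (-0.27 ± 0.04, adjusted p = 0.0050), Adgrg1 (-0.21 ± 0.04, adjusted p = 0.029) and the potassium channel Kcnj10 (-0.19 ± 0.04, adjusted p = 0.032) were lower. Of 14 glucocorticoid-responsive genes, Per1 (0.44 ± 0.05, adjusted p = 0.000415) and Errfi1 (0.35 ± 0.05, adjusted p = 0.0079) rose. Of 20 reactive genes and 18 glycogen and lactate genes 0 passed by edgeR. At an unadjusted p under 0.05 there were 3 and 7, beside 18.6% of all genes.

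Baseline differences were read from the homecage groups of RNA-Seq 2. There Gfap spread among the CBP KIX/KIX mice as no other of the 36 genes did in any group. Gfap was at 296, 315 and 299.7 CPM in WT homecage mice and at 301, 545, 779.5 and 1442 CPM in CBP KIX/KIX homecage mice. The first mutant library lay among the WT values, and the other 3 lay above every other library of RNA-Seq 2, the highest of which was at 322 CPM. The coefficient of variation of Gfap was 64.0% in this group and 3.41% in WT homecage mice. The log2 difference of 1.32 ± 0.42 did not pass (edgeR, adjusted p = 0.78), and it lay from 0.84 to 1.58 when 1 library was left out (adjusted p from 0.087 to 1.0).

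Other genes of the 36 were also high in the third and the fourth mutant library. These libraries held 16567226 and 15940061 counts, against 36896142 and 46056290 in the first and the second. Libraries numbered 3 and 4 in the other groups of RNA-Seq 2 held 15385836 to 20568337 counts, with Gfap from 229.8 to 321.6 CPM. The part of depth was not tested. The water channel Aqp4 was at 102, 123, 160.5 and 231 CPM in the CBP KIX/KIX homecage mice and at 105, 116 and 121 CPM in WT homecage mice. Ppp1r3c was at 40.2, 39.5, 59.7 and 64.2 CPM against 36.4, 38 and 42.1 CPM, with the last 2 mutant libraries above every other library of RNA-Seq 2. The endothelin receptor Ednrb was at 38.2, 38.6, 46.2 and 59.2 CPM against 38, 38.6 and 38.1 CPM, and the serine transporter Slc7a10 at 30.3, 29.3, 38.8 and 40.2 CPM against 27.3, 27 and 25.1 CPM. Glul was lowest in the third and the fourth, at 1125, 1090, 895 and 864 CPM against 1070, 1061 and 1276 CPM. The calcium-binding protein S100b was at 94.2, 112, 94.9 and 96.3 CPM against 85.7, 83.8 and 86.4 CPM, and its mutant libraries lay above all others of RNA-Seq 2.

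The fourth mutant library held the highest value of the group in 20 of 36 genes (55.6%), beside 36.3% of 15917 genes. Of 15 reactive genes with at least 1 CPM in another library of RNA-Seq 2, 12 were highest there. Serpina3n was at 46.2, 81.1, 98.6 and 149 CPM in the 4 mutant libraries, and at 44.8, 44.6 and 54.9 CPM in WT homecage mice. The filament gene Vim was at 35.1, 46.2, 47.8 and 96.3 CPM, against 38.4, 54.3 and 35.5 CPM. The 4 progenitor and immature neuron markers were all highest in the fourth mutant library, with a summed level of 33.5 to 59.8 CPM in the group and 34.2 to 37.1 CPM in WT homecage mice. The 6 microglial markers were highest in the second mutant library, with a sum of 193 to 228 CPM against 199 to 206 CPM. The 5 choroid plexus markers were highest in the third, with a sum of 115 to 2495 CPM against 26.1 to 1563 CPM. The part of these in the spread of Gfap was not tested.

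**Figure D4:**
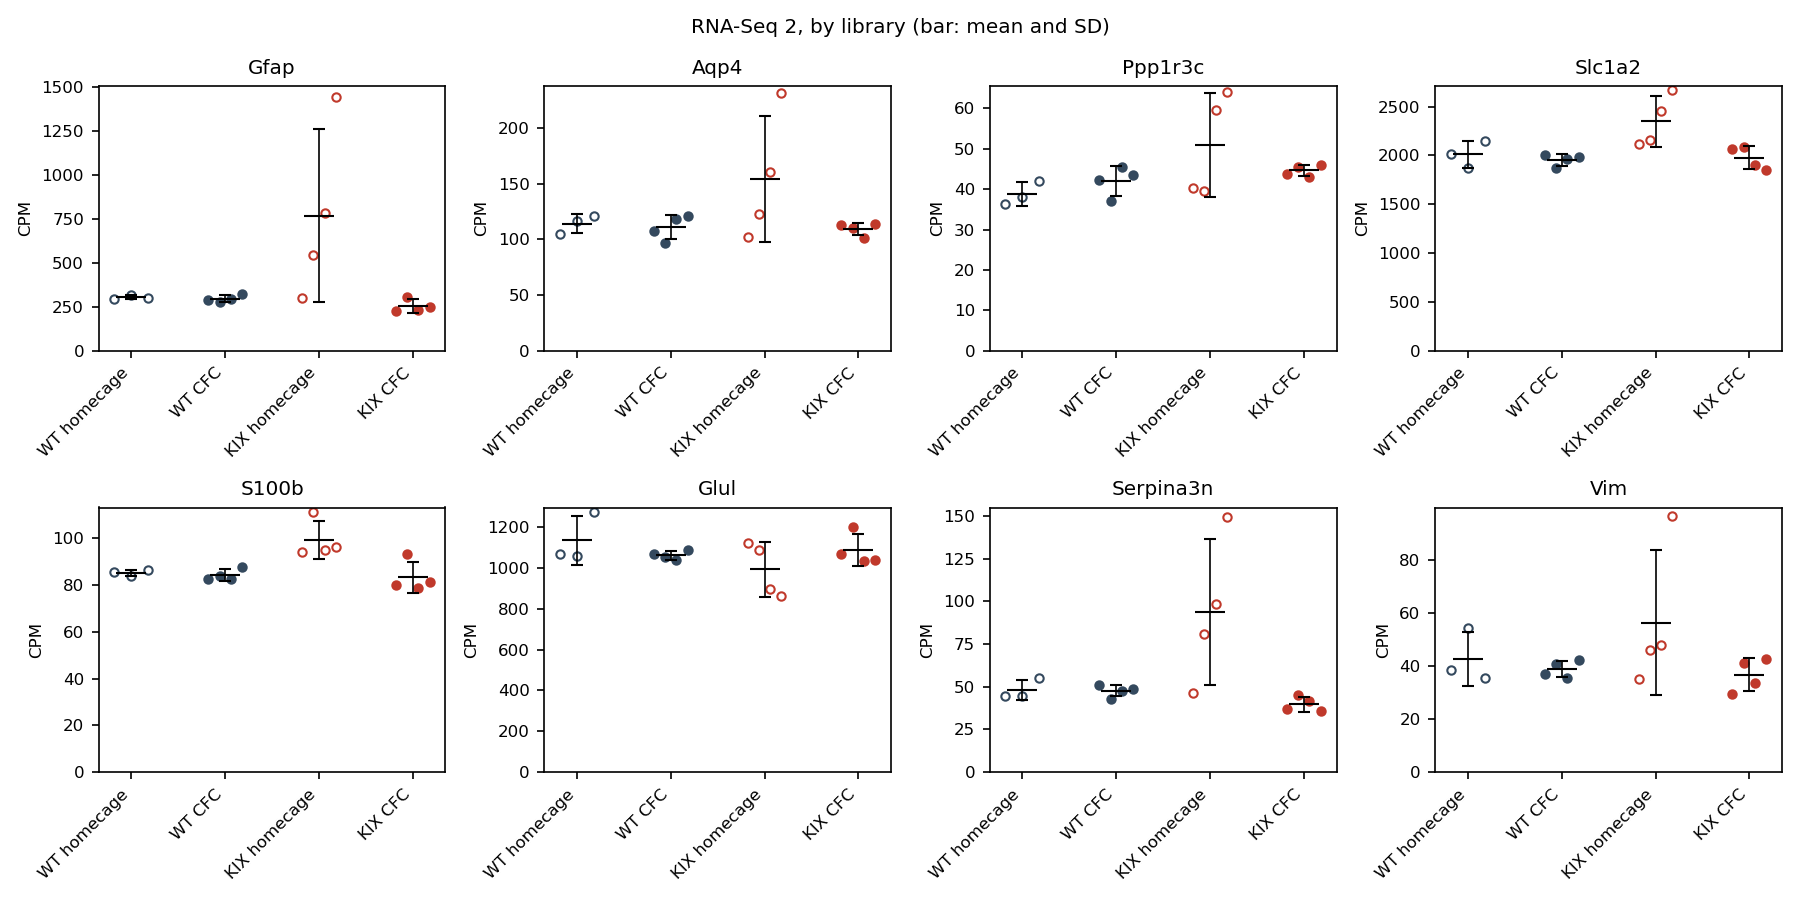
CPM of 8 genes in each library of RNA-Seq 2 (dark: WT, red: CBP KIX/KIX, open: homecage, filled: CFC), with mean and SD. Gfap, Aqp4, Serpina3n and Vim spread widely among the 4 CBP KIX/KIX homecage libraries, where Gfap runs from 301 to 1442 CPM, and Glul is lowest in 2 of them.

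Over all 36 genes, 0 passed in the homecage comparison of genotypes (edgeR; DESeq2 also 0; 0.0107% of 18682 genes passed). At an unadjusted p under 0.05 there were 6 of 36 genes (16.7%), beside 6.17% of all genes, with 5 higher (2.85%) and 1 lower (3.32%). They were Gfap, S100b (0.21 ± 0.07), Slc7a10 (0.37 ± 0.12), Slc1a2 (0.22 ± 0.09), the acyl-CoA synthetase Acsbg1 (0.12 ± 0.05) and, lower, Cbs (-0.26 ± 0.11). In 5 genes every mutant library lay above every WT library (13.9%, beside 3.09% of all genes), and in 0 every one lay below (3.42% of all genes). The 5 were S100b, Slc7a10, Acsbg1, Mt1 and the neurotensin receptor Ntsr2. Cbs was at 30.6, 23.9, 26 and 31.1 CPM in mutant and 32.4, 29.5 and 38.5 CPM in WT homecage mice, lower in 4 of 4 mutant libraries than the WT mean. Aldh1l1 (-0.01 ± 0.11), Gja1 (-0.03 ± 0.06) and F3 (0.02 ± 0.06) gave log2 differences smaller than their SE.

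CFC was compared with the homecage in CBP KIX/KIX mice last. No gene of the 36 passed (edgeR; 0 of 18851 genes), and 11 of 36 had an unadjusted p under 0.05 (30.6%, beside 13.0% of all genes), 8 lower (6.84%) and 3 higher (6.21%). The median log2 difference of the 36 was -0.12, beside 0.01 for all genes, and 28 were below 0. Gfap was at 301, 545, 779.5 and 1442 CPM in homecage and 224, 307, 229.8 and 250.3 CPM after CFC, a log2 difference of -1.56 ± 0.31 (edgeR, adjusted p = 0.088). With the replicate number as a block it was -1.42 (adjusted p = 0.075), and 0 of the 36 genes passed, beside 0.0159% of all genes. Slc1a2 was at 2112, 2155, 2456 and 2670 CPM in homecage and 2063, 2089, 1906 and 1854 CPM after CFC (-0.21 ± 0.06, adjusted p = 0.18), S100b gave -0.22 ± 0.06 (adjusted p = 0.17) and the metallothionein Mt1 -0.30 ± 0.09 (adjusted p = 0.18). For these 3 genes the groups did not overlap (8.33%, beside 3.39% of all genes). The sphingosine receptor S1pr1 was higher after CFC by 0.22 ± 0.06 (adjusted p = 0.15). DESeq2 called 4 of the 36, beside 1.89% of all genes, among them Gfap at -1.57 (adjusted p = 0.0026), S100b at -0.23 (adjusted p = 0.044) and S1pr1 at 0.21 (adjusted p = 0.048). Without the first homecage library, edgeR also called 4, beside 5.33% of all genes, with Gfap at -1.83 (adjusted p = 0.00074).

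The response to CFC was not shown to differ between genotypes for any of the 36 genes (interaction in edgeR, 0 passed, 4 at an unadjusted p under 0.05, beside 4.93% of all genes; DESeq2 called 0). Gfap gave -1.53 ± 0.45 (adjusted p = 0.94), and without the first CBP KIX/KIX homecage library -1.80 (adjusted p = 0.037), a fit in which 0.295% of all genes passed. Gja1 gave 0.15 ± 0.06 and S100b -0.22 ± 0.09 (adjusted p = 0.94 for each).

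Within groups the 36 genes varied together to a modest degree. Over the 24 libraries the mean pairwise correlation of their log2 deviations from group means was 0.14, beside 0.016 for 22408 genes. It was 0.080 over the 9 libraries of RNA-Seq 1 and 0.20 over the 15 of RNA-Seq 2. The points of these correlations share library and depth. Of the 22408 genes, 10126 had a mean level of at least 10 CPM, and the part of level in the difference from all genes was not tested. Htra1 (0.67), Aldoc (0.66) and Acsbg1 (0.62) followed the mean of the other genes most closely, and Sparcl1 (-0.31) and Gja1 (-0.13) had negative values. In the 11 libraries of RNA-Seq 2 outside the CBP KIX/KIX homecage group these were 0.24 and 0.14, and in RNA-Seq 1 they were -0.11 and -0.04. Aqp4 was the gene most like Gfap over the 24 libraries (r = 0.89). The value was 0.93 in RNA-Seq 2, 0.41 in its 11 libraries outside the CBP KIX/KIX homecage group and 0.23 in RNA-Seq 1, so it rested on that group.

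**Figure D5:**
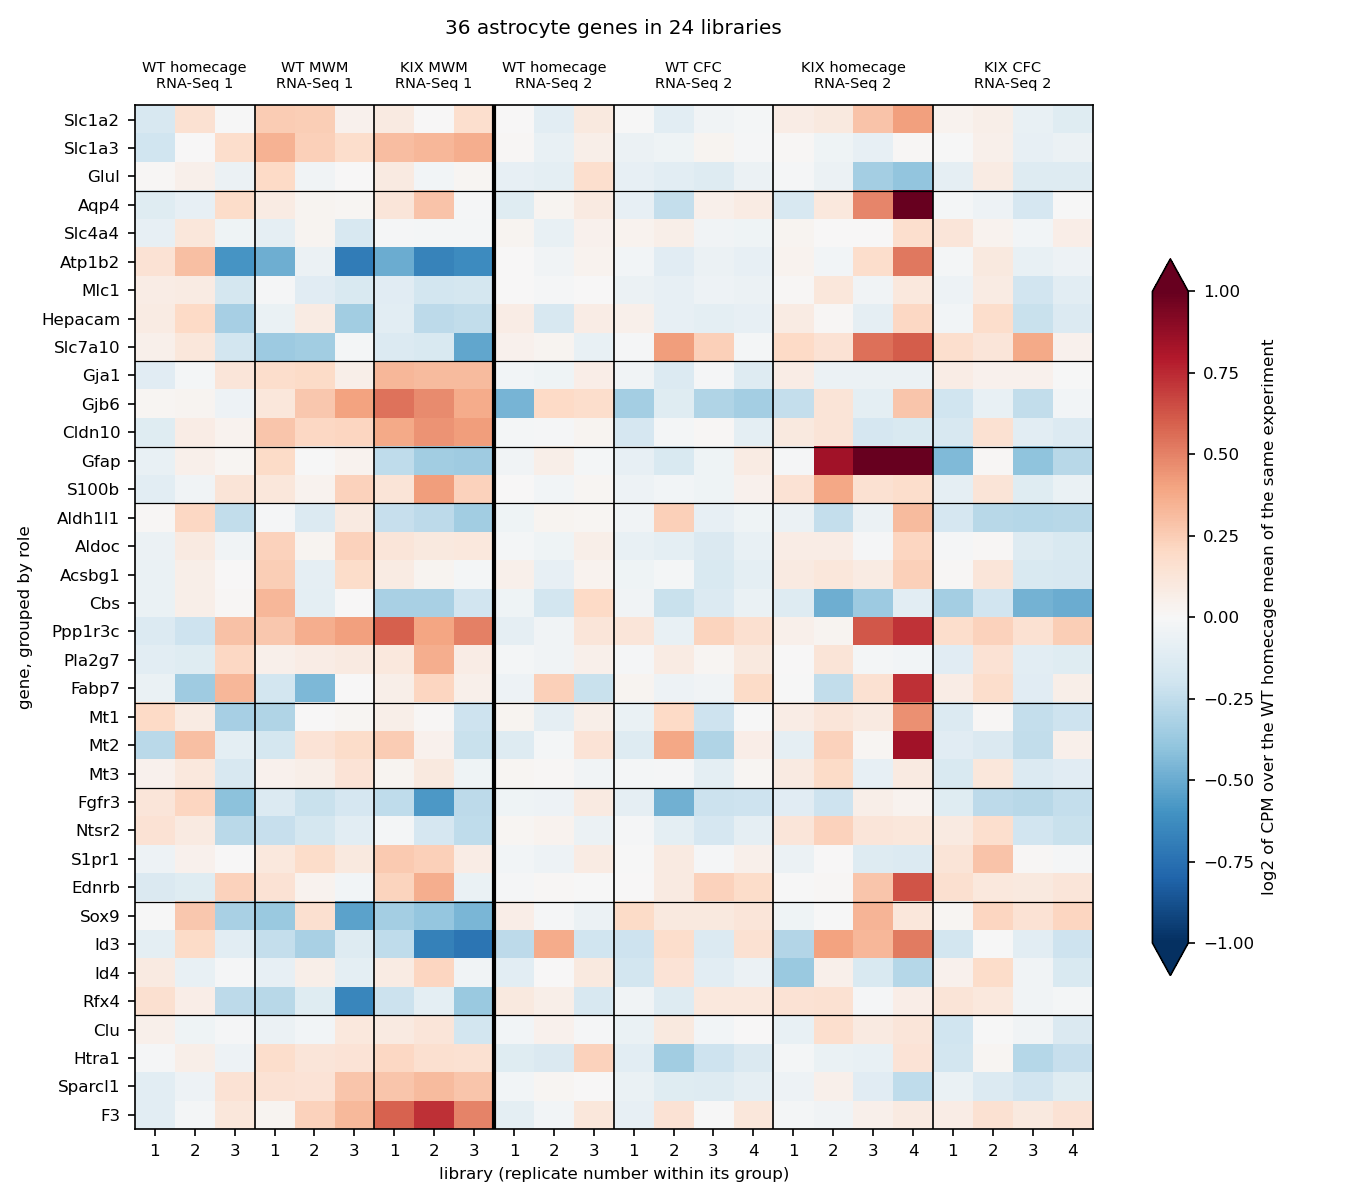
Log2 of each gene's CPM over the WT homecage mean of the same experiment in all 24 libraries (columns, by group and replicate number), for the 36 genes in rows ordered by role; colours stop at -1 and 1. Gfap and Aqp4 stand out in the CBP KIX/KIX homecage libraries. F3, Gja1, Gjb6, Cldn10, Ppp1r3c and Slc1a3 are among the genes that are warm in the CBP KIX/KIX MWM libraries. Their means were above the WT homecage mean in WT MWM mice as well.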

How the data were processed

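RNA was measured in the dorsal hippocampus of 24 mice in 7 groups. The authors aligned reads to mm10 with STAR and deposited raw counts per gene from featureCounts (1.4.4, with SAMtools 1.6 per the submitters' processing notes). The strand setting and annotation release are not given in the sources used here. Counts were normalized by upper quartile and tested with edgeR 4.0.16 (R 4.3.3, quasi-likelihood, Benjamini-Hochberg) over all genes kept by its default filter. The joint fits added 4 (genotype after learning) or 3 (WT learning) factors from a reimplementation of RUVr, as the package was not installed. Comparisons within an experiment were fitted without factors on all of its groups, and the homecage comparisons on their own groups. Interactions were fitted without factors on the groups they join. Alternatives were DESeq2 1.42.0, TMM, other filters, GC normalization, other numbers of factors, a replicate block, leaving out single libraries and, added after seeing the data, a choroid plexus covariate. The fits were also run on simulated counts with the same spread in every gene and no unwanted variation. The factors were estimated on these counts too, but counts without unwanted variation cannot show how well that step removes it. Genes that passed are given in full, except between the WT homecage groups of RNA-Seq 1 and RNA-Seq 2. There 27 of the 36 passed, and of these Aldh1l1 and Mt2 are given. Where none passed, the 3 of lowest p are given. Others of the 36 were named after their values were seen. The 36 genes and all lists were chosen with earlier results of these data known. Replicates are separate mice. Same-numbered libraries of RNA-Seq 2 deviated together more than others (mean correlation 0.172 against -0.0573), and totals there split by number (30143949 to 46056290 for numbers 1 and 2, 15385836 to 20568337 for 3 and 4). Every same-numbered pair was over 0.1 only between CBP KIX/KIX homecage and CFC (0.147 to 0.252) and WT homecage and CFC (0.191 to 0.376). Unlike-numbered pairs of CBP KIX/KIX homecage and CFC lay at 0.214 and 0.197 among numbers 1 and 2. Among numbers 3 and 4 they lay at 0.175 and 0.098. Whether the numbers pair mice was not tested. A block on them changed no call of the 36 genes when CFC was compared with homecage. Between CBP KIX/KIX homecage and WT homecage (0.0638 to 0.243) or WT CFC (0.0671 to 0.237) every pair was over 0. The lowest pair was below 0 between CBP KIX/KIX CFC and either WT group. In RNA-Seq 1 the mean was -0.0186. Same-numbered pairs there lay from 0.0997 to 0.184 between WT homecage and MWM. With CBP KIX/KIX MWM they lay from -0.262 to 0.0701 for WT homecage and from -0.157 to -0.0138 for WT MWM.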

Additional observations from a re-analysis of the deposited data

Results flagged for a closer look

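The 108 sets of 4 libraries examined for the 36 genes share libraries and the genes varied together, so they are not independent. Of these sets, 12 held a library far from the other 3, where independent sets would give about 5.4. In the CBP KIX/KIX homecage group these were the bicarbonate transporter Slc4a4 at 138.6 CPM in replicate 4 (the others 123.4 to 125.9), Mt1 at 166.5 CPM in replicate 4 (128.1 to 132.0), S100b at 111.5 CPM in replicate 2 (94.25 to 96.34), Ntsr2 at 142.4 CPM in replicate 2 (131.1 to 132.0) and Gja1 at 197.6 CPM in replicate 1 (180.2 to 180.8). In the CBP KIX/KIX CFC group they were Cldn10 at 31.02 CPM (25.04 to 25.99), the phospholipase Pla2g7 at 139.5 CPM (116.1 to 117.3) and Mt3 at 227.8 CPM (189.4 to 194.0), all in replicate 2, and Aldh1l1 at 35.09 CPM in replicate 1 (32.43 to 32.51). In the WT CFC group they were Aldh1l1 at 46.41 CPM (37.21 to 38.55) and Gjb6 at 37.27 CPM (31.97 to 32.83) in replicate 2, and the adhesion protein Hepacam at 71.4 CPM in replicate 1 (64.39 to 65.21). Gfap in the CBP KIX/KIX homecage group was spread over all 4 libraries and did not stand apart by this measure.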

How the results depend on the processing

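For genotype after learning, the count of the 36 genes that passed was 0 without factors, 3 with 1 factor, 10 with a replicate block and the factors, 0 with the block and no factors, and 4 to 7 when 1 library was left out. For WT learning it was 1 with TMM, with a filter of 1 CPM, with 1 factor or with 2 factors, 4 with DESeq2, and 0 with no filter, with GC normalization, without factors, with the replicate block and no factors or with the choroid plexus covariate, and 0 to 8 when 1 library was left out. All genes called in that comparison were 76 higher and 124 lower, but 84 and 55 with TMM and 529 and 227 with DESeq2. In CBP KIX/KIX mice, CFC against homecage gave 4 with DESeq2 and 0 to 4 when 1 library was left out. The range was 0 to 5 for the MWM in WT mice, 0 to 1 for the interaction of genotype and training and 0 to 2 for that of learning and experiment. Single genes were followed over the alternatives, with the left-out-library fits of lowest and highest log2 difference counted for each gene. The genes followed were those of lowest p among the genes that passed and, where none passed, the 3 of lowest p. There 405 results stayed on their side of the threshold, 29 calls were lost, 6 were gained and 0 reversed. Results that stayed include genes that passed in neither fit, and only genes that had passed could be lost. With the replicate block 0 of the 36 genes passed in each within-experiment comparison and each interaction, as without it. The cause of these changes was not tested. Groups of 3 or 4 limit the precision, and the joint calls of genotype and learning rested on the factors of unwanted variation.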
